A study of Homo sapiens with 6 samples.

Results

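The zinc finger genes of chromosome 19 with a ZNF symbol were examined in HCT116 cells that overexpressed the small nucleolar RNA SNORA28. Genes were taken when GENCODE 44 annotates them as protein-coding on chromosome 19 of GRCh38, when the symbol begins with ZNF, and when the mean over the 6 libraries was at least 1 FPKM (fragments per kilobase of transcript, scaled to the mapped fragments of the library, so a level per length). Of 249 such annotated genes, 81 (32.5%) reached this level and are called the measured genes here. The genes were chosen by this mean level and by no other measured value, and the other 168 are accounted for below.

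HCT116 is an established human colorectal carcinoma cell line. LV-NC (3 libraries) are cells that received the negative control lentivirus, LV-SNORA28 (3 libraries) cells that received the virus overexpressing SNORA28, and the period of infection was the same. Poly(A) RNA was sequenced, and the comparison asks which messages differ when SNORA28 is in excess. Whether the libraries of a group came from separate cultures is not given in the sources used here, so the p-values measure the spread between these libraries, which may be technical.

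C2H2 zinc finger proteins bind DNA through tandem fingers, each a short loop held by a zinc ion and joined to the next by a conserved linker. Many also carry a KRAB box, which recruits TRIM28 and, through it, the histone H3 lysine 9 methyltransferase SETDB1. This silences transposable elements and some genes. Human chromosome 19 holds the largest share of these genes, in long tandem clusters that arose by repeated gene duplication, and members of a cluster are often near copies of each other.

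The shared build of these genes can be seen in the bases that encode the linker between adjacent fingers. Below, the linker nearest the start of the coding sequence is given for the genes most often named in the results, read from GENCODE transcripts of GRCh38 on the coding strand. The 15 linker bases are in capitals and the flanking bases belong to the fingers on each side. Each stretch lies in coding sequence.
ZNF134 (chr19:57620792-57620821, plus strand): atccatACTGGAGAAAGGCCTtatgaatgc
ZNF146 (chr19:36236717-36236746, plus strand): attcacACTGGAGAAAAACCTtttgagtgt
ZNF121 (chr19:9566591-9566620, minus strand): acccatACTGGGGAGAAACCCtatgaatgt
ZNF430 (chr19:21057068-21057097, plus strand): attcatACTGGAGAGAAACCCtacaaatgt
ZNF83 (chr19:52614112-52614141, minus strand): attcatACTGGAGAGAAGCCAtataaatgt
ZNF28 (chr19:52800774-52800803, minus strand): attcacACTGGAGAGAAACCTtacaagtgt

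The linker was found 448 times in 70 of the measured genes, in 108 spellings. The commonest spelling, ACTGGAGAGAAACCT, was present 87 times in 22 genes and is the one shown for ZNF28. The next, ACTGGAGAGAAACCC, was present 63 times in 21 genes and is shown for ZNF430. These likenesses matter for the measurement, because reads from near copies may be assigned to the wrong gene. Of the 81 genes, 32 shared at least one 100-base stretch of transcript with another gene, and 9 shared more than 10% of their 100-base windows. A further feature is crowding, since 34 of the 81 overlapped another gene on the same strand. The libraries were made with a strand-marking method, but whether strand was used in counting is not given in the sources used here. ZNF134, ZNF146 and ZNF121 shared no 100-base stretch and overlapped no gene on their strand. At the other extreme, ZNF564 shared 84.2% of its windows, so its level cannot be separated from that of its overlapping annotation.

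SNORA28 itself rose from 0.92, 0 and 0.64 FPKM under LV-NC to 15.01, 13.66 and 15.20 FPKM under LV-SNORA28, as the labels of the 6 libraries say. The epithelial markers fixed for the cell line were present in each library, with EPCAM at 96.9 to 115 FPKM and KRT18 at 150 to 169 FPKM. The leukocyte and endothelial markers PTPRC, CD3E, PECAM1 and CDH5 were at 0.08 FPKM or below, while CD68 was at 0.95 to 4.12 FPKM, and of the fibroblast markers COL1A1 was at 3.16 to 4.46 FPKM and COL1A2 at 0. Genes of the mitochondrial genome took 42.7% to 47.7% of the summed FPKM of a control library and 35.9% to 38.3% of an LV-SNORA28 library, without overlap. FPKM divides by each library's total, so this share can move every other gene, and its part in the results below was not tested beyond the rescaled fit given there. The read depth is not known from FPKM.

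Most zinc finger genes of the chromosome were low or silent in HCT116. Over the 249 annotated genes the median of the mean level was 0.51 FPKM, 45 were listed at 0 in all 6 libraries, and 164 were above 0 in all 6. Of the 1221 other protein-coding genes of chromosome 19, 656 (53.7%) reached 1 FPKM, against 32.5% of the ZNF genes. Among the 81 measured genes the median was 1.96 FPKM, beside 5.26 FPKM for the 12076 genes of the genome that passed the same level and were tested. Of the 81, 41 lay between 1 and 2 FPKM, 30 between 2 and 5, and 10 at or above 5.

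Both of the best known repressors of recent transposable elements on the chromosome, named after their values were seen, lay below the level that was tested. ZNF91, which represses SVA elements, gave 0.42, 0.43 and 0.57 FPKM under LV-NC against 0.58, 0.40 and 0.60 FPKM under LV-SNORA28. ZNF93, which represses LINE-1 elements, was at 0, 0 and 0.02 FPKM under LV-NC and listed at 0 in the LV-SNORA28 libraries.

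The highest of all was ZNF146, a small protein that consists almost wholly of fingers, with a mean of 31.9 FPKM. ZNF428, which has a single finger by the pattern used, had control values of 18.78, 19.17 and 18.02 FPKM and LV-SNORA28 values of 17.41, 19.09 and 17.66 FPKM. These groups overlapped, and the log2 fold change was -0.05 (limma adjusted p 0.678). ZNF787 likewise overlapped, with 6.92, 7.08 and 6.37 FPKM under LV-NC against 6.38, 6.96 and 7.76 FPKM under LV-SNORA28.

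The level of 1 FPKM divided close neighbours. Just above it, ZNF224, a KRAB repressor, measured 1.28, 0.53 and 0.55 FPKM with the control virus and 1.24, 1.15 and 1.32 FPKM with LV-SNORA28, a mean of 1.01, followed by ZNF701 with a mean of 1.05 and ZNF614 with a mean of 1.06. Just below it, ZNF808 gave 1.44, 1.00 and 0.36 FPKM under LV-NC against 0.43, 1.38 and 1.36 FPKM under LV-SNORA28, a mean of 0.995. ZNF112 and ZNF780A followed, with means of 0.985 and 0.978 FPKM. ZNF430, ZNF100, ZNF607, ZNF224 and ZNF701 reached the level only through LV-SNORA28, their LV-NC means being under 1, and none reached it only through LV-NC. The other 76 were at or above 1 FPKM in both groups.

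With SNORA28 in excess the measured zinc finger genes lay close to their control levels. In the limma fit over all 12076 genes, 2 of the 81, ZNF134 and ZNF146, rose (adjusted p below 0.05), where 6.81% of all genes rose. None of the 81 fell, where 2.10% of all genes fell, and at an unadjusted p below 0.05 a single one, ZNF28, was lower. The threshold of the study is a fold change over 1.5 together with an unadjusted p under 0.05, and what meets it depends on how the fold of low genes is taken. On the log2(FPKM + 1) scale none of the 81 met it, where 3.79% of all genes did. As a ratio of group means in FPKM, an alternative chosen after seeing the data, ZNF823 (1.66 times, limma p 0.0157) and ZNF430 (1.55 times, limma p 0.0119) met it, 2 of the 81 where 6.86% of all genes did. ZNF430 reached 1 FPKM only through LV-SNORA28, so a rise was favoured by the choice of genes. With a pseudocount of 0.1 only ZNF823 met the threshold of the study. Without LV-SNORA28 replicate 1, ZNF584 met it on the log2(FPKM + 1) scale, in the lower direction. At an unadjusted p below 0.05 alone, 14 were higher and 1 lower, that is 18.5% of the 81 where the share among all genes was 28.0%. Neither share of calls among the 81 was above its background. The background genes are higher in level, with a median of 5.26 FPKM against 1.96 FPKM for the 81. The part of level in these shares was not tested.

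For most of the 81 genes the groups overlapped. The LV-SNORA28 libraries all lay above the LV-NC libraries for 20 genes (24.7%), where this held for 27.0% of all genes, and all below for 2 genes (2.47%), where it held for 8.16%. None of the 81 changed by more than 0.5 on the log2 scale in the fit, where 7.14% of all genes did. The scale of the fold changes, log2(FPKM + 1), understates the change of genes near 1 FPKM.

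ZNF134 (ENSG00000213762; chr19:57614233-57624724, plus strand) had control values of 1.90, 1.86 and 1.63 FPKM and LV-SNORA28 values of 2.75, 2.79 and 2.47 FPKM. The groups did not overlap, with means of 1.80 ± 0.146 and 2.67 ± 0.174 FPKM (SD, n = 3). Its log2 fold change was 0.39 (SE 0.08, 95% interval 0.20 to 0.59), and limma gave an adjusted p of 0.0365. With any 1 library left out the adjusted p in limma was 0.0600 to 0.122, so the call rests on all 6. The protein has 10 fingers by the pattern used, and no KRAB box was found in it.

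ZNF146 (ENSG00000167635; chr19:36214602-36238771, plus strand) measured 30.76, 26.96 and 27.79 FPKM with the control virus and 34.42, 35.06 and 36.32 FPKM with LV-SNORA28. The LV-SNORA28 libraries were all above the highest control, with means of 28.5 ± 2.00 and 35.3 ± 0.967 FPKM (SD, n = 3). Its log2 fold change was 0.30 (SE 0.07, 95% interval 0.14 to 0.46), and limma gave an adjusted p of 0.0447. Leaving out LV-NC replicate 1 the limma adjusted p was 0.0386, and for any other library it was 0.0943 to 0.144. This protein also has 10 fingers, in 292 residues, with no KRAB box found. With quantile normalization neither gene passed, with limma adjusted p-values of 0.0832 for ZNF134 and 0.111 for ZNF146.

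**Figure D1:**
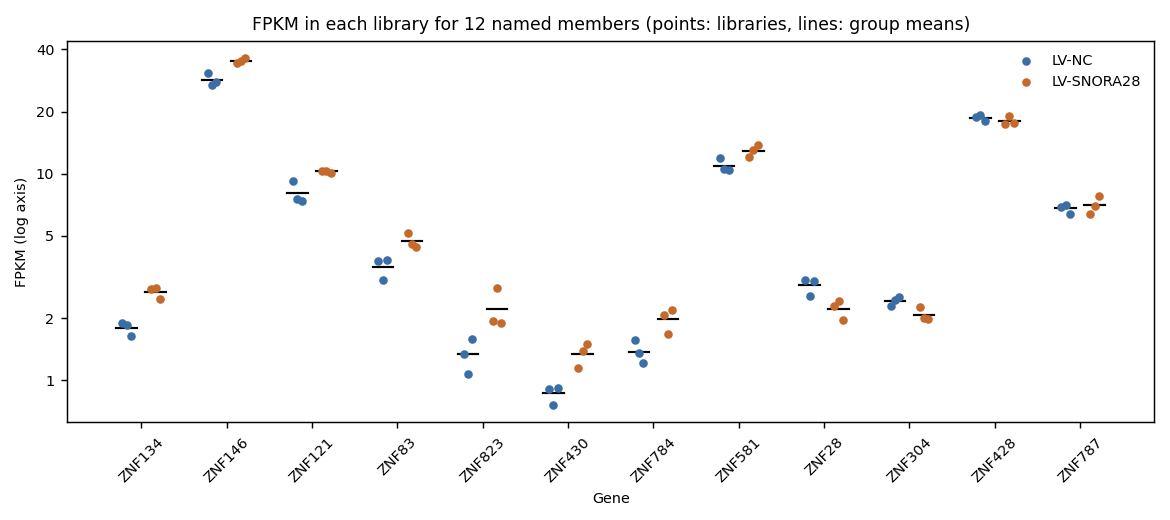
FPKM of 12 named chromosome 19 zinc finger genes in each library, on a log axis; points are libraries (blue LV-NC, orange LV-SNORA28) and black lines are group means (n = 3). ZNF146 stands far above the others, the groups of ZNF134 are apart at 1.63 to 1.90 and 2.47 to 2.79 FPKM, and ZNF428 and ZNF787 overlap.

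Several other genes had groups that did not overlap without passing the test. ZNF121 (ENSG00000197961; chr19:9560329-9584504, minus strand) gave 9.22, 7.57 and 7.37 FPKM under LV-NC against 10.33, 10.34 and 10.09 FPKM under LV-SNORA28. The LV-SNORA28 values lay within a narrow range, and LV-NC replicate 1 was the closest control to them. The log2 fold change was 0.32 (SE 0.09), with a limma adjusted p of 0.0760. Without LV-NC replicate 1 it passed, at a limma adjusted p of 0.0330, and without any other library the value was 0.160 to 0.189. ZNF224 also passed without that library (limma adjusted p 0.0385), which holds its one high control value. It reached 1 FPKM only through LV-SNORA28, so a difference in that direction was favoured by the choice of genes.

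The KRAB gene ZNF823 (ENSG00000197933; chr19:11721265-11739009) had the highest fold change among those whose groups did not overlap. It had control values of 1.34, 1.07 and 1.59 FPKM and LV-SNORA28 values of 1.94, 2.79 and 1.90 FPKM. LV-SNORA28 replicate 2 stood above the other two, and the log2 fold change was 0.45 (SE 0.14, limma adjusted p 0.0948). ZNF83 (ENSG00000167766; chr19:52594060-52690559), which overlaps other genes on its strand, measured 3.77, 3.07 and 3.81 FPKM with the control virus and 5.17, 4.59 and 4.41 FPKM with LV-SNORA28. Its log2 fold change was 0.33, with a limma adjusted p of 0.0827.

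ZNF430 (ENSG00000118620; chr19:21020634-21060050), with 0.91, 0.76 and 0.92 FPKM under LV-NC against 1.15, 1.38 and 1.49 FPKM under LV-SNORA28, had a log2 fold change of 0.33 and a limma adjusted p of 0.0823. It reached the level only through LV-SNORA28, so a difference in that direction was favoured by the choice of genes. ZNF784 gave 1.56, 1.35 and 1.21 FPKM under LV-NC against 2.06, 1.67 and 2.18 FPKM under LV-SNORA28, with a log2 fold change of 0.32 and a limma adjusted p of 0.105. In ZNF581, with 11.88, 10.52 and 10.40 FPKM under LV-NC against 12.11, 13.02 and 13.72 FPKM under LV-SNORA28, the lowest treated library was only just above the highest control (log2 fold change 0.23, limma adjusted p 0.122).

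ZNF581 overlaps ZNF580 on the same strand, and the assignment of their shared reads was not tested. ZNF580 had control values of 3.43, 7.16 and 7.32 FPKM and LV-SNORA28 values of 6.94, 7.36 and 7.90 FPKM, LV-NC replicate 1 being low where ZNF581 was high. Their summed levels were 15.31, 17.68 and 17.72 FPKM under LV-NC against 19.05, 20.38 and 21.62 FPKM under LV-SNORA28, again without overlap.

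On the lower side, ZNF28 (ENSG00000198538; chr19:52797408-52857600, minus strand), a KRAB gene, measured 3.07, 2.55 and 3.01 FPKM with the control virus and 2.29, 2.41 and 1.95 FPKM with LV-SNORA28. The treated libraries all lay below the controls, with a log2 fold change of -0.27 (SE 0.10, limma adjusted p 0.127). ZNF28 overlaps its neighbour ZNF468, and the sum of both, with 6.80, 5.64 and 6.32 FPKM under LV-NC against 5.77, 5.79 and 5.30 FPKM under LV-SNORA28, did overlap. ZNF304 (ENSG00000131845; chr19:57351271-57359898), a KRAB repressor described in colorectal cancer cells, gave 2.28, 2.44 and 2.52 FPKM under LV-NC against 2.25, 1.99 and 1.98 FPKM under LV-SNORA28. Its highest treated library lay just under its lowest control, with a log2 fold change of -0.15 and a limma adjusted p of 0.261.

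Members with a known role outside the silencing of repeats were named after their values were seen. ZNF274, a KRAB protein that recruits SETDB1 to the 3' ends of zinc finger genes themselves, had control values of 1.72, 1.55 and 1.55 FPKM and LV-SNORA28 values of 1.54, 1.69 and 1.97 FPKM. ZNF473, which takes part in the processing of histone pre-mRNA, measured 3.16, 3.26 and 2.88 FPKM with the control virus and 3.23, 3.15 and 3.40 FPKM with LV-SNORA28. Their groups overlapped, and the log2 fold changes were 0.07 and 0.06 (limma adjusted p 0.678 and 0.664).

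The precision sets what could have been seen. The 95% intervals of the 81 log2 fold changes reached a median of 0.24 to either side of the estimate, and for 66 genes the interval lay wholly within 0.58 of 0 on the log2(FPKM + 1) scale. For a gene near 1 FPKM those bounds still allow a change in FPKM of more than 1.5-fold, as the ratio of means of ZNF430 shows. The interval included 0 for 66 genes and the median of all genes for 73.

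The median log2 fold change of the 81 genes was 0.11, with the middle 50% from -0.03 to 0.22, beside 0.09 for all genes tested. It was positive for 59 (72.8%), where it was positive for 66.7% of all genes, and 43 of the 81 lay above the median of all genes. The small rise shared with the other genes depends on the scale. After rescaling to the FPKM sum of nuclear genes the median of the 81 was 0.09, beside 0.06 for all genes tested. It was 0.02 beside -0.001 after quantile normalization, and -0.01 beside -0.005 once a trend with GC content was removed. The last 2 settings bring the libraries to a common centre, so a median of all genes near 0 follows from them. With a pseudocount of 0.1 the median of the 81 was 0.15, beside 0.11 for all genes tested. Across all genes, 822 were called higher and 254 lower, and quantile normalization gave 451 and 375. Among the 76 genes at or above 1 FPKM in both groups the median was 0.09, with both called genes among them.

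ZNF genes elsewhere in the genome gave nearly the same values. The 166 tested on other chromosomes had a median log2 fold change of 0.09, 123 of them positive, with 2 called higher and 1 lower (1.81%). The 656 other protein-coding genes of chromosome 19 had a median of 0.04, with 30 called higher and 15 lower (6.86%). These neighbours are richer in GC, with a median of 61.1% of transcript bases, where the 81 genes have 44.2% and ZNF genes of other chromosomes 47.5%. Of the chromosome 19 genes with a ZFP, ZSCAN, ZIK or ZIM symbol 2 were tested. Both were positive, with a median log2 fold change of 0.33, but their groups overlapped and neither was called.

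**Figure D2:**
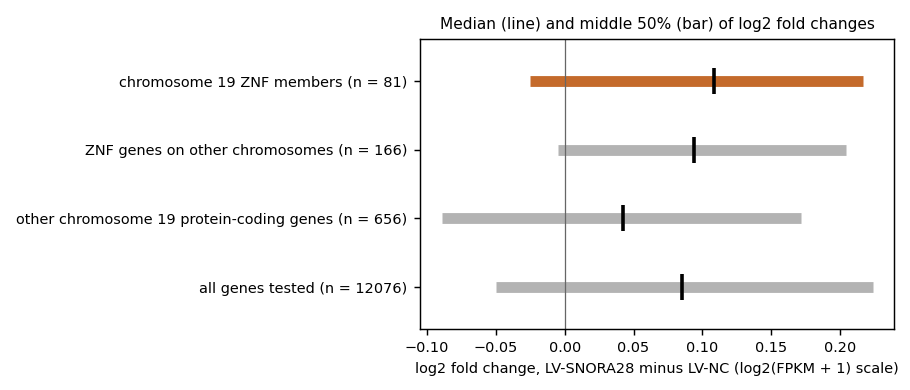
Log2 fold change, LV-SNORA28 minus LV-NC on the log2(FPKM + 1) scale, in 4 gene sets; the black line is the median and the bar the middle 50% of genes. The bar of the 81 measured genes (median 0.11) lies over those of ZNF genes on other chromosomes (0.09) and of all genes tested (0.09), and other chromosome 19 genes have a median of 0.04.

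Summed over the 81 genes, the level was 265.72, 237.84 and 251.07 FPKM under LV-NC against 277.37, 272.52 and 282.18 FPKM under LV-SNORA28. The groups did not overlap, with means of 252 ± 13.9 and 277 ± 4.83 FPKM (SD, n = 3). As a share of the FPKM of nuclear genes the sums were 0.139%, 0.121% and 0.129% in LV-NC and 0.141%, 0.137% and 0.144% in LV-SNORA28, which overlapped. LV-NC replicate 2, the library with the highest mitochondrial share at 47.7%, had the lowest sum and the fewest chromosome 19 ZNF genes at or above 1 FPKM, 75 against 83 to 90 in the others.

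The 168 genes below 1 FPKM were looked at in a fit without a level filter. In that fit 123 of them were above 0 in at least one library, their median log2 fold change was 0.01, and none was called, with 5 higher and 0 lower at an unadjusted p below 0.05 in limma. Of all 32761 genes in the fit, 1.21% were called, 14.5% had an unadjusted p below 0.05 and the median was 0.02. At these levels the pseudocount of 1 pulls fold changes toward 0, so the lack of calls does not show that these genes were unchanged.

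Along the chromosome, the 249 annotated genes fall into 16 runs when successive starts are at most 1 Mb apart. The 6 runs with at least 5 measured genes hold 70 of the 81. The run with the most genes, at the end of the long arm, reaches from ZNF628 to ZNF446 (chr19:55476617-58481230) with 59 annotated genes, of which 26 were measured. The run from ZNF101 to ZNF254 on the short arm next to the centromere (chr19:19668796-24129968) is of like kind in the annotation, with 37 genes, but only 5 of them were measured.

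**Figure D3:**
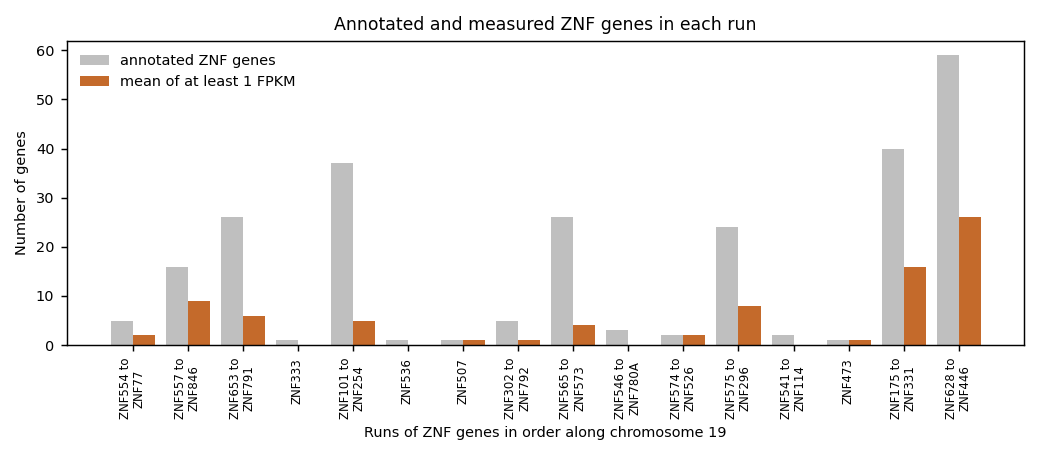
Number of protein-coding ZNF genes annotated (grey) and with a mean of at least 1 FPKM (orange) in each of the 16 runs, in order along chromosome 19. The run from ZNF101 to ZNF254 has 5 measured genes of 37, and the run from ZNF628 to ZNF446 has 26 of 59.

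In the pericentromeric run from ZNF101 to ZNF254 the 5 measured genes were ZNF14, ZNF430, ZNF714, ZNF708 and ZNF100. Their log2 fold changes were 0.12 to 0.33, with a median of 0.19. The libraries did not overlap for ZNF430, ZNF708 and ZNF100, where 27.0% of all genes tested were higher without overlap. ZNF708 gave 0.91, 0.94 and 1.16 FPKM under LV-NC against 1.32, 1.25 and 1.28 FPKM under LV-SNORA28, and ZNF100 gave 1.02, 0.68 and 1.07 FPKM under LV-NC against 1.23, 1.41 and 1.46 FPKM under LV-SNORA28. None of these was called, with limma adjusted p-values of 0.211 for ZNF708 and 0.134 for ZNF100. ZNF430 and ZNF100 reached the level only through LV-SNORA28, and the median GC content of this run, 37.3%, was the lowest of the runs described. Once the GC trend was removed the median log2 fold change of the run was 0.02. That step also centres each library, and the median of all genes tested was then -0.005. With quantile normalization the run had 0.11 and all genes -0.001. The part of GC content in the rise of this run was not tested apart from this centring.

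The run from ZNF628 to ZNF446 had a median of 0.14, with 20 of 26 positive. The groups did not overlap for 7 higher genes, ZNF134 the only one called, and for 1 lower gene, ZNF304. Among all genes tested 27.0% were higher and 8.16% lower without overlap. The 8 tested genes of other kinds inside the run had a median of 0.04. With a gap of 0.5 Mb this run divides, and the 8 measured genes from ZNF628 to ZNF835 were all positive with a median of 0.20, while the 18 from ZNF264 to ZNF446 had a median of 0.09.

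The run from ZNF175 to ZNF331 (chr19:51571283-53580269) had the lowest median of the runs described. Its 16 measured genes, of 40 annotated, had a median of 0.03, with 12 positive. Without overlap, 3 were higher (ZNF766, ZNF480 and ZNF83) and 1 lower (ZNF28), where 27.0% and 8.16% of all genes tested were. The values ranged from -0.27 for ZNF28 to 0.46 for ZNF888, and the median was 0.10 without LV-NC replicate 1, -0.02 without LV-NC replicate 2 and -0.05 with quantile normalization. ZNF83 and ZNF28, whose estimates had opposite signs, lie in this run, with ZNF600 the only measured gene between them. The estimates closest to 0 were those of ZNF816, ZNF614, ZNF468 and ZNF160, each within 0.02 of 0 on the log2 scale.

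With a gap of 1 Mb, the 3 other runs were near the median of all genes. For the counts without overlap given here, the share of all genes tested that were higher was 27.0%. From ZNF557 to ZNF846 (chr19:7069703-9793180) 9 of 16 genes were measured, with a median of 0.10 (0.22 without LV-SNORA28 replicate 1, 0.06 without LV-NC replicate 2), 6 positive and 3 higher without overlap (ZNF414, ZNF266 and ZNF121), and the 31 tested genes of other kinds there had a median of 0.12. From ZNF653 to ZNF791 (chr19:11483427-12640098) 6 of 26 were measured, with a median of 0.08, or -0.01 with quantile normalization, and ZNF823 alone without overlap. From ZNF575 to ZNF296 (chr19:43525497-45076478) 8 of 24 were measured, with a median of 0.11 and no gene without overlap. That median was 0.02 without LV-NC replicate 1 and 0.03 without LV-NC replicate 2.

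The fold changes of adjacent genes did not lie closer together than those of any pair. The median absolute difference in log2 fold change was 0.20 between successive measured genes of the same run (69 pairs) and 0.16 over all 3240 pairs. This is a description, without a test.

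**Figure D4:**
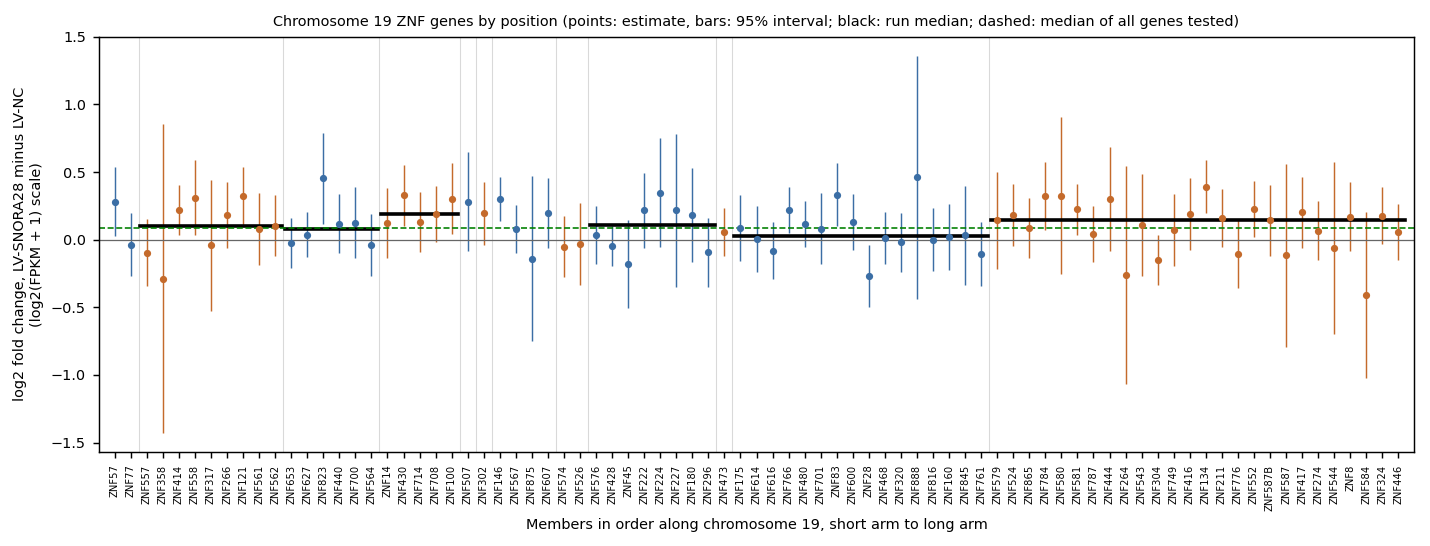
Log2 fold change, LV-SNORA28 minus LV-NC on the log2(FPKM + 1) scale, of each of the 81 measured genes in order along chromosome 19; points are estimates, bars 95% intervals (limma, n = 3 per group), colours and grey lines mark successive runs, black lines the median of each run with at least 5 measured genes, and the dashed line the median of all genes tested. Most intervals cross 0 (66 of 81), and the run medians lie between 0.03 and 0.19.

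Both genes that rose lacked a recognised KRAB box. A KRAB box was found by its pattern in 53 of the 81 and not in 28, the pattern missing divergent boxes such as that of ZNF473. The median log2 fold change was 0.11 in both sets, and both called genes were among the 28. Those 28 were also higher in level, with a median of 3.58 FPKM against 1.85 FPKM for the 53. The part of level in the calls was not tested, and neither call held with quantile normalization. The number of fingers had a median of 11, from 1 to 26. Among the 52 genes with 10 or more fingers the median log2 fold change was 0.08, and among the 29 with fewer it was 0.17. Over the 81 genes Pearson's r between fingers and log2 fold change was -0.11 and Spearman's rho -0.15, a description over genes that share libraries and sequence.

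GC content divided the genes more clearly by kind than by response. The 18 genes with over 55% GC had a median of 6 fingers and a mean level of 4.06 FPKM in the median, and the 63 others 12 fingers and 1.89 FPKM. Their median log2 fold changes were 0.07 and 0.12, where all genes tested had 0.03 above 55% GC and 0.11 at or below it. Pearson's r with GC was -0.13 and Spearman's rho -0.17 over the 81 genes, and -0.18 and -0.24 over 12053 tested genes with a transcript.

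**Figure D5:**
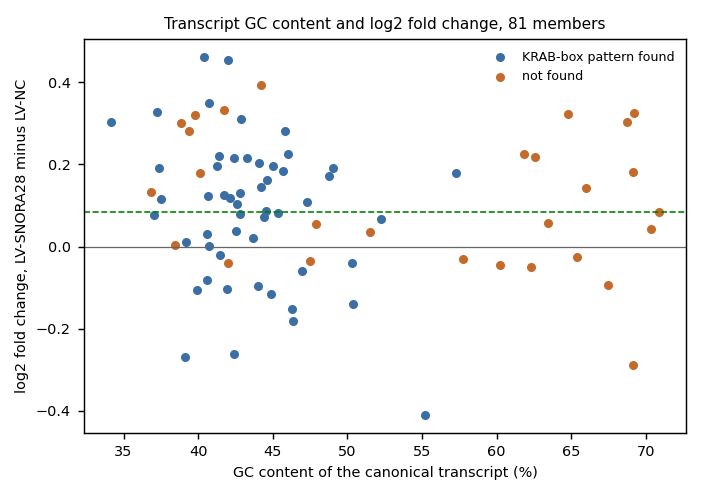
GC content of the canonical transcript (percent) against log2 fold change, LV-SNORA28 minus LV-NC, for the 81 measured genes; blue points have a KRAB-box pattern (53 genes), orange points do not (28), and the dashed line is the median of all genes tested. The 18 genes above 55% GC lie mostly among those without the pattern, and the fold changes span 0 on both sides (Pearson's r -0.13).

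The sequence used for the control virus holds the 7-mer GTGTCAC, and 9.70% of 10538 tested genes with an annotated 3' UTR contain it there. Among the 81 genes 5 (6.17%) did, namely ZNF507, ZNF576, ZNF8, ZNF584 and ZNF324. Their median log2 fold change was 0.17, against 0.11 in the other 76, and none had an unadjusted p below 0.05 in limma. Over all genes tested the median was 0.17 for the 1022 with the 7-mer, 392 of them with such a p, and 0.08 for the 9516 without it, 2578 of them with such a p. These sets also differ in median 3' UTR length, 3101 bases with the 7-mer and 1153 without it. Their median GC contents were 47.2% and 49.4%. The part of length and GC in the difference was not tested. The letters were searched on the transcript strand only, and a match is not a site.

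Of the partners through which KRAB proteins silence chromatin, 18 were listed and 17 were tested, ATF7IP2 being below 1 FPKM. None was called, 4 had an unadjusted p below 0.05 in limma, and 16 were positive with a median log2 fold change of 0.16. Among all genes tested 28.0% had such a p, 66.7% were positive and the median was 0.09. TRIM28, the corepressor bound by the KRAB box, was the one with a negative value. It had control values of 100.06, 110.90 and 118.24 FPKM and LV-SNORA28 values of 98.38, 91.64 and 96.95 FPKM. The groups were just apart, at a log2 fold change of -0.19 (SE 0.08; limma adjusted p 0.158).

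SETDB1, which methylates histone H3 lysine 9 at TRIM28-bound loci, measured 8.33, 6.70 and 6.49 FPKM with the control virus and 7.90, 6.64 and 7.41 FPKM with LV-SNORA28. The groups overlapped, with a log2 fold change of 0.03 and a limma adjusted p of 0.889. CBX1, a heterochromatin protein that reads this mark, gave 52.71, 56.20 and 58.61 FPKM under LV-NC against 64.39, 66.13 and 68.01 FPKM under LV-SNORA28. Its libraries did not overlap, with a log2 fold change of 0.24 and a limma adjusted p of 0.0589. TASOR, a subunit of the HUSH silencing complex, and ATF7IP, a partner of SETDB1, were also higher without overlap, by 0.35 and 0.25 on the log2 scale (limma adjusted p 0.0676 and 0.0963). PPHLN1, another HUSH subunit, was higher without overlap too, by 0.25 at a limma adjusted p of 0.208. CBX1, TASOR, ATF7IP and PPHLN1 were named after their values were seen. Among all genes tested 27.0% were higher without overlap. Apart from TRIM28, the groups of the other tested partners overlapped.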

How the data were processed

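Per the labels, poly(A) RNA of HCT116 cells was made into dUTP-marked libraries and sequenced as paired ends. The authors deposited 1 table of FPKM per gene and library, with no counts, so depth per library is unknown and its effect on precision is seen only in the spread of replicates. The submitters' processing notes name hg38, cutadapt 1.9, HISAT2 2.2.1, StringTie 2.1.6, DESeq2 and edgeR, without roles. The annotation release is not given in the sources used here. Of 60612 gene identifiers, 60401 matched GENCODE 44, which gave positions and transcripts.

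Here, the 12076 genes that averaged 1 FPKM or more across the 6 libraries were compared as log2(FPKM + 1) with limma 3.58.1 in R 4.3.3 (empirical Bayes with a mean trend, two-sided, Benjamini-Hochberg over all genes tested, called below 0.05). The fit was tested on simulated data. Library, run and sequence summaries used Python 3.11.15. Fingers, linkers and KRAB boxes were found by pattern in the translated canonical transcript. The genes and lists were chosen with earlier results of these data known. Named genes were the called ones, up to 5 highest and 5 lowest without overlap (only 2 were lower), the 5 highest in level, the 3 nearest 1 FPKM on each side, TRIM28 and SETDB1. Alternatives were other scalings, pseudocounts, filters, a replicate block and each library left out, and, chosen after seeing the data, GC and length trends removed, sets of genes left out and the fold as a ratio of mean FPKM.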

Additional observations from a re-analysis of the deposited data

How the results depend on the processing

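Of the 81 genes, 2 were called, and 0 were with quantile normalization, no filter, the replicate block, the GC trend removed or the length trend removed. It was 1 after scaling to nuclear genes or without the trend in limma (ZNF134), and 1 at a mean of at least 5 FPKM (ZNF146, of 10 genes), where 1 corepressor, CBX1, was also called. With 1 library left out 0 to 3 were called, 3 (ZNF146, ZNF121 and ZNF224) without LV-NC replicate 1 and 0 without any other. Of these 3, ZNF224 reached 1 FPKM only through LV-SNORA28. None of the 81 was called lower under any setting. The threshold of the study gave 1 gene with a pseudocount of 0.1 (ZNF823) and 2 with the fold as a ratio of mean FPKM (ZNF823 and ZNF430). ZNF430 reached 1 FPKM only through LV-SNORA28. With 1 library left out the threshold gave 0 to 1, the 1 being ZNF584, lower without LV-SNORA28 replicate 1. Calls among all genes, 1076, were 397 with no filter, 510 with the replicate block, 706 (366 higher, 340 lower) with the GC trend removed and 279 to 628 with 1 library left out. They were 879 (615 and 264) after scaling to nuclear genes and 995 (516 and 479) with the length trend removed. Same-numbered libraries deviated with correlations of -0.04, 0.09 and 0.01, so no clear shared deviation by number was seen. Whether same-numbered libraries were prepared together is not given in the sources used here.

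The median of the 81 was 0.154 with a pseudocount of 0.1, 0.0230 with quantile normalization and -0.0146 with the GC trend removed. It was 0.0132 with the length trend removed and 0.0625 to 0.125 with 1 library left out. Quantile normalization and the removal of a trend also centre the libraries. The median of all genes tested was then -0.00127 (quantile), -0.00502 (GC trend) and -0.00244 (length trend). The difference between the median of the 81 and that of all genes, 0.02, was 0.0488 with a pseudocount of 0.1 and -0.00958 with the GC trend removed. With 1 library left out it was -0.00294 to 0.0266, below 0 without LV-NC replicate 2. With no filter it was 0.0901. There the median of the 81 was unchanged, and that of all 32761 genes in the fit was 0.0188. All chromosome 19 ZNF genes in that fit, with those below 1 FPKM included, had a median of 0.0223. Medians of the runs moved as follows. ZNF557 to ZNF846 gave -0.0400 at 5 FPKM, -0.0295 without the GC trend and 0.0630 to 0.220 with 1 library left out. ZNF653 to ZNF791 gave -0.0273 without the GC trend, -0.0197 without the length trend and -0.0121 with quantile normalization. ZNF101 to ZNF254 gave 0.106 with quantile normalization, 0.333 with a pseudocount of 0.1, 0.0158 without the GC trend and 0.0931 without the length trend. ZNF575 to ZNF296 gave 0.0245 with quantile normalization, 0.164 with a pseudocount of 0.1, -0.0456 at 5 FPKM, -0.00330 without the GC trend, 0.00998 without the length trend and 0.0186 to 0.103 with 1 library left out. ZNF175 to ZNF331 gave -0.109 without the GC trend, -0.0736 without the length trend, -0.0537 with quantile normalization and -0.0241 to 0.0995 with 1 library left out.

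Direction turned for 4 named genes with values near 0. ZNF787 was -0.0487 with quantile normalization, -0.0506 without the length trend and -0.0223 to 0.101 with 1 library left out. ZNF701 was -0.00112 with quantile normalization, -0.0233 without the GC trend and -0.0193 without the length trend. ZNF614 was -0.0859 with quantile normalization, -0.00885 after nuclear scaling, -0.160 without the GC trend, -0.0950 without the length trend and -0.0767 to 0.0567 with 1 library left out. SETDB1 was -0.0699 with quantile normalization, -0.0440 without the GC trend, -0.0698 without the length trend and -0.0302 to 0.128 with 1 library left out. The cause of these moves was not tested. With 3 libraries in each group and levels mostly under 5 FPKM, changes below 0.24 on the log2 scale were within the median reach of a 95% interval to either side.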

Other observations

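In 9 of the 81 genes (11.1%) 1 library stood more than 2-fold from both others of its group, a rule chosen after the values were seen, where this held for 6.66% of all genes tested. Between 1 and 5 FPKM the shares were 9.72% of the zinc finger genes and 9.63% of all genes. ZNF358, a gene with 9 fingers, had control values of 6.11, 6.02 and 4.74 FPKM and LV-SNORA28 values of 1.37, 7.86 and 6.51 FPKM. ZNF888 measured 2.34, 0.24 and 2.20 FPKM with the control virus and 2.60, 1.97 and 2.23 FPKM with LV-SNORA28. ZNF264 gave 2.03, 1.49 and 1.74 FPKM under LV-NC against 2.08, 0.29 and 2.02 FPKM under LV-SNORA28. The libraries set apart were not the same ones from gene to gene. ZNF587 (2.83, 0.83 and 2.37 FPKM in LV-NC) shares 14.7% of its 100-base windows with other genes, and ZNF417 23.5%. The sum of these neighbours was 3.88, 1.63 and 3.56 FPKM under LV-NC against 2.64, 2.75 and 3.56 FPKM under LV-SNORA28.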
